A study of Mus musculus with 6 samples.

Results

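The glucocorticoid receptor gene Nr3c1 and 9 genes that the activated receptor is known to induce, Tsc22d3, Fkbp5, Per1, Zbtb16, Sgk1, Klf9, Dusp1, Cebpd and Mt2, were followed in mouse adrenal medulla. Every probe set (a group of short array probes read as 1 value) whose only annotated gene symbol was one of these names was taken, which gave 29 of the 45101 probe sets and 10 of the 18193 genes on the array. Of these 29, 17 reached a log2 intensity of at least 4 on at least 3 of the 6 arrays and were tested, and each of the 10 genes had at least 1 tested probe set. The other 12 lay between 1.92 and 4.76 on the log2 scale, and 8 of those were under log2 4 on every array.

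The samples came from male C57/Bl6 mice, 3 after transverse aortic constriction (TAC, a surgical narrowing of the aorta that puts the heart under pressure load) and 3 after a sham operation, all 8 weeks after surgery. Both medullae of 1 animal were microdissected from frozen sections, amplified in 2 cycles from the 3′ end and hybridised to 1 Mouse Genome 430 2.0 array, so each array is a separate animal. The labels name no drug, transgene or hormone, and circulating corticosterone was not analysed here. The dissected medulla was read as a whole, so fewer cells of a type and less RNA per cell cannot be told apart in any value below.

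Glucocorticoids are steroid hormones made in the adrenal cortex, and the medulla is bathed in blood that has just left the cortex. In the absence of hormone the receptor is held in the cytoplasm by heat shock proteins and immunophilins. With hormone bound it enters the nucleus and binds glucocorticoid response elements, in which an arm reading AGAACA and an arm reading TGTTCT flank a short spacer. In chromaffin cells, which release adrenaline and noradrenaline, the best known target is Pnmt, the enzyme that turns noradrenaline into adrenaline.

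RefSeq promoter windows (build GRCm38.p6, from 250 bases before to 50 bases after each annotated start) were used for 7 of the 10 genes, in 15 windows. The windows of 1 chromosome were left out of all counts here, so these shares do not cover every gene. The full element is AGAACA followed after any 3 bases by TGTTCT, which reads the same on both strands. It was present in 3 of the 32851 windows counted (0.00913%) and in 1 of the 15, a start of Sgk1, which encodes a kinase that regulates ion transport. It lay 189 to 175 bases before that start. The window is shown because it holds the textbook binding sequence of the receptor, with full elements and single arms in capitals. A single arm (AGAACA or TGTTCT, counted also where it is part of a full element) was found in 19% of all windows, in 3 of the 6 windows of Sgk1 and in 1 of the 3 of Tsc22d3. The Tsc22d3 window with an arm is shown because it belongs to the gene whose groups did not overlap. The cAMP response element TGACGTCA, also the same on both strands, occurred in 1.79% of all windows and among these genes in that of Dusp1, whose phosphatase product switches off MAP kinases. It is shown because Dusp1 is also induced by nerve activity. Matches describe these letters only, and no binding was measured.
Sgk1, chr10:21993640-21993939, plus strand: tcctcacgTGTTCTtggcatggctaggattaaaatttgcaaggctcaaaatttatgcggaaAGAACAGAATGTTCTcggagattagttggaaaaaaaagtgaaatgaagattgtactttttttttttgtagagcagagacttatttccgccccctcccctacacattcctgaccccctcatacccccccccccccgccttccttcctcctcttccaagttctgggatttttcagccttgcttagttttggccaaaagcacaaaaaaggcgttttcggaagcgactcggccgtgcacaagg
Tsc22d3, chrX:140600473-140600772, minus strand: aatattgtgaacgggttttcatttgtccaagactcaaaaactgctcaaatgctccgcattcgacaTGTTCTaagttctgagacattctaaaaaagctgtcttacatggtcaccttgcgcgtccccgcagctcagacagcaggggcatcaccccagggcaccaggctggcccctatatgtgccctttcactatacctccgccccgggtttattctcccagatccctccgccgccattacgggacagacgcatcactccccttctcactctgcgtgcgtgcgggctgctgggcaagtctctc
Dusp1, chr17:26508423-26508722, minus strand: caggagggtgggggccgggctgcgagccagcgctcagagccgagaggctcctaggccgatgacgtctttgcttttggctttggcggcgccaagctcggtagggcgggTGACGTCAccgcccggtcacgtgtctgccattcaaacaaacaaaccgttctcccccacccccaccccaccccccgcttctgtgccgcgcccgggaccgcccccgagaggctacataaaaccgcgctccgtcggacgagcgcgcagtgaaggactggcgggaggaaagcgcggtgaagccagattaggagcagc

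The tissue was checked against marker genes. Of 10 chromaffin markers with a probe set, all 10 were tested, and their mean was 12.07 to 12.82 after TAC and 12.12 to 12.64 after sham. Cortex was followed through Star, which carries cholesterol to the start of steroid synthesis. Star measured 9.23, 7.90 and 6.10 in TAC 1 to 3 and 8.88, 6.56 and 10.81 in sham 1 to 3, so cortex signal varied more within the groups than between them (exact 2-sided permutation p = 0.5, where 3 against 3 arrays allow no p below 0.1). Its other probe sets, 1418729_at and 1449201_at, differed by -0.88 ± 1.54 and -0.81 ± 1.57 SE. Of 13 cortex markers 8 were tested, and their mean was 6.65 to 9.23 after TAC and 6.66 to 10.51 after sham. Cyp11b2, Mc2r and Nr5a1 did not pass the filter, but Mc2r read 7.75 in sham 3 and under log2 4 on every other array. RNA integrity was read only as the Gapdh 3′ minus 5′ difference, which is larger when transcripts or their amplified copies are shortened. It was largest in TAC 1 (4.71) and sham 1 (5.15), and lay at 3.67 and 3.98 in the other TAC arrays and at 3.08 and 2.88 in the other sham arrays. TAC 1 and sham 1 are called the arrays of poorest RNA below by this measure alone. It cannot tell shortened RNA from shortening during amplification. All levels below are log2 intensities, all differences are TAC minus sham on that scale, SD is the spread of 3 arrays, and SE is the standard error that limma gives.

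**Figure D1:**
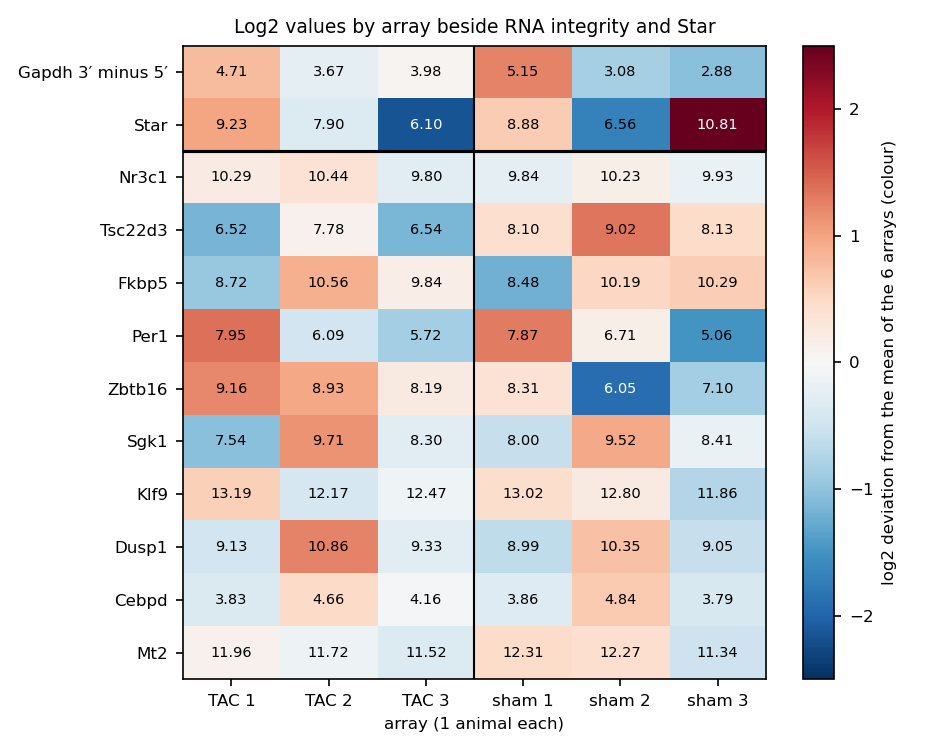
Log2 values (printed) of the Gapdh 3′ minus 5′ difference, Star and the brightest tested probe set of each gene in each array, 1 animal per column, TAC on the left. Colours give the deviation from the row's mean over 6 arrays. Fkbp5 is lowest, and Per1 highest, in TAC 1 and sham 1, and Tsc22d3 is lower in every TAC array than in every sham array.

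TAC and sham were compared to ask whether the medulla's glucocorticoid response genes differ under cardiac pressure load. None of the 17 tested probe sets passed the threshold (0 at a limma adjusted p under 0.05, against 0% of all 18188 tested probe sets), and their adjusted p-values ran from 0.568 to 0.998. Only 2 had an unadjusted p under 0.05, the brightest probe sets of Tsc22d3 and Zbtb16, where 6.94% of all tested probe sets reached it. The groups did not overlap at 1 of the 17, against 13.0% of all tested probe sets. With the brightest tested probe set standing for each gene, 7 genes lay higher and 3 lower after TAC, with a median difference of 0.05, beside a median of 0.09 over all 10181 tested genes (5 genes lay lower after quantile normalization and 6 after cyclic loess). The SE of these 10 differences ran from 0.27 to 0.88, so the 3 arrays per group limit what could be detected.

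The receptor gene Nr3c1 differed between the groups by less than the spread between animals on all 3 tested probe sets. Its brightest probe set, 1457635_s_at, read 10.29, 10.44 and 9.80 in TAC 1 to 3 against 9.84, 10.23 and 9.93 in sham 1 to 3. The groups overlapped, and the difference was 0.18 ± 0.27 SE (95% interval -0.48 to 0.84, limma adjusted p = 0.982). The suffix s marks probes shared by several transcripts. Probe set 1460303_at read 8.38, 9.70 and 8.70 after TAC and 7.99, 9.38 and 9.10 after sham (difference 0.10 ± 0.51), with the lowest value of each group in the array of poorest RNA. Probe set 1421867_at read 6.91, 7.31 and 6.85 after TAC and 6.70, 7.32 and 7.44 after sham (difference -0.13 ± 0.30). The 3 readings of the receptor thus lay within 0.18 of 0 on either side, and 3 further probe sets of Nr3c1 were not tested. Among 10180 other genes, the brightest probe sets of 62 (0.61%) had a Pearson r over 0.9 with 1457635_s_at over the 6 arrays. The 5 highest were Elovl5 (0.99), Rnf180 (0.98), Caap1, Zbtb14 and Sgpp1 (each 0.96), a description that rests on 6 points sharing the same arrays.

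Tsc22d3 encodes GILZ, a leucine zipper protein that carries part of the anti-inflammatory action of glucocorticoids. Its brightest probe set, 1420772_a_at, read 6.52, 7.78 and 6.54 in TAC 1 to 3 against 8.10, 9.02 and 8.13 in sham 1 to 3. Every TAC animal lay below every sham animal, and the level was 2.77-fold lower after TAC. The means were 6.95 ± 0.72 after TAC and 8.42 ± 0.52 after sham (SD, n = 3 each), a difference of -1.47 ± 0.46 SE (95% interval -2.59 to -0.35) that did not pass (limma adjusted p = 0.568). A second probe set, 1425281_a_at, read 5.11, 6.19 and 5.11 after TAC and 5.16, 7.27 and 6.41 after sham. It overlapped between groups, with a difference of -0.81 ± 0.61 SE (adjusted p = 0.934). The third, 1425557_x_at, whose suffix marks probes that can bind other transcripts, was flat at 5.02 to 5.45 in all arrays (difference 0.13 ± 0.23).

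The lower reading of Tsc22d3 was set beside RNA integrity, cortex and other cell types. With the Gapdh difference as a covariate it was -1.34 ± 0.42 (limma adjusted p = 0.159). In that fit 21.1% of all tested probe sets reached an unadjusted p under 0.05, against 6.94% without the covariate. With the Star level as a covariate the difference of Tsc22d3 was -1.60 ± 0.51, and it passed in neither fit. Among TAC 1, TAC 3 and sham 1, whose Gapdh difference was larger, it was -1.57, and among the other 3 arrays it was -0.79, each part setting 1 array of a group against the rest. Without any 1 array it stayed between -1.89 and -1.17. Averaging the 3 probe sets of the gene gave -0.72. Of 5 fibroblast markers, all tested, 4 lay lower and 1 (Pdgfra, 0.11) higher after TAC and 0 passed, and their mean was 6.42, 7.66 and 7.38 in TAC 1 to 3 against 7.50, 8.71 and 8.61 in sham 1 to 3, with TAC 2 above sham 1. Of 4 macrophage markers 3 were tested (Cd68 was below the filter), 2 lay higher and 1 (Adgre1, -0.13) lower and 0 passed, with overlapping means of 9.13 to 9.72 after TAC and 8.64 to 9.20 after sham. The part of these cells in the Tsc22d3 reading was not tested.

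**Figure D2:**
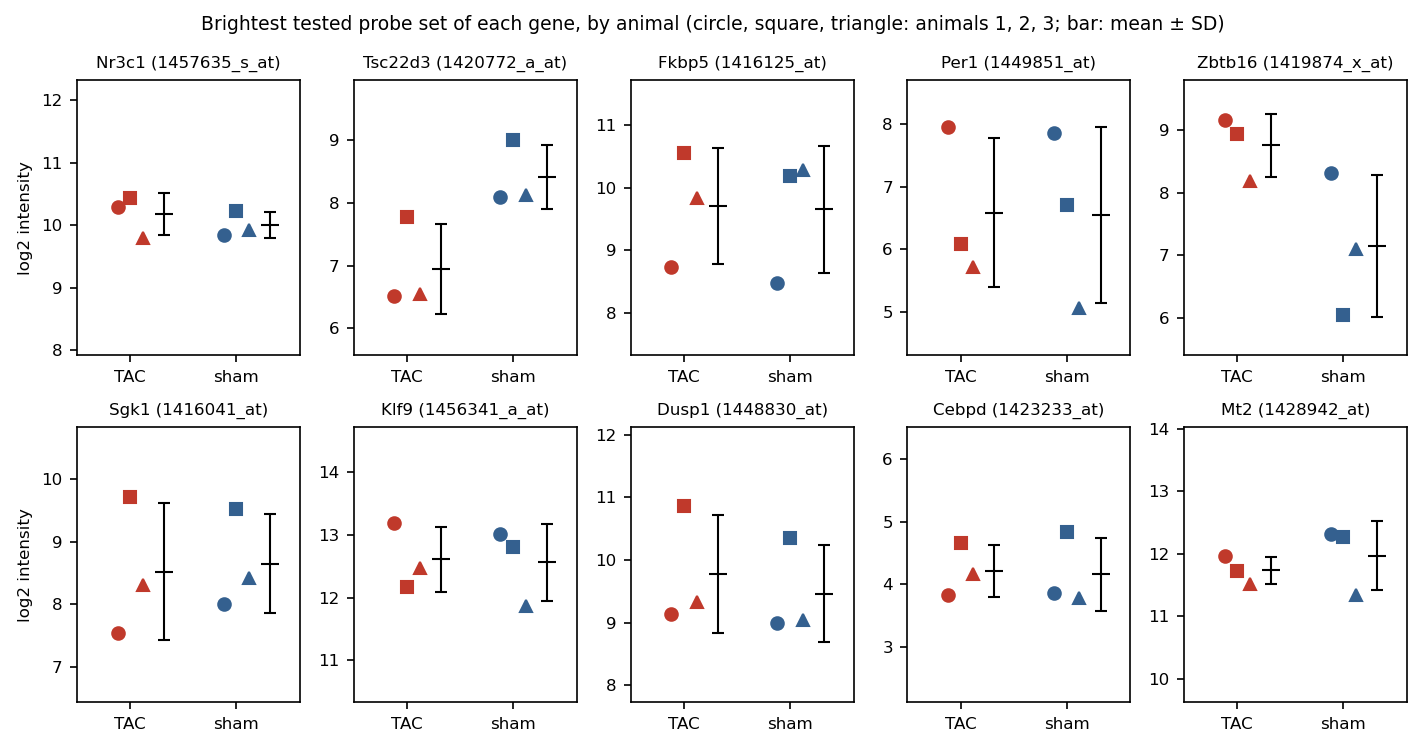
Log2 intensity of the brightest tested probe set of each gene, TAC (red, left) and sham (blue, right). Circles, squares and triangles are animals 1, 2 and 3 of a group, the bar gives the mean ± SD of 3 animals, and each panel spans the same height on its own log2 axis. Only Tsc22d3 has groups that do not overlap.

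Zbtb16, a zinc finger transcription factor also called PLZF and a strong glucocorticoid target in several tissues, was read in opposite directions by its probe sets. Probe set 1419874_x_at read 9.16, 8.93 and 8.19 in TAC 1 to 3 against 8.31, 6.05 and 7.10 in sham 1 to 3. TAC 3 lay below sham 1, and the difference was 1.61 ± 0.61 SE (95% interval 0.12 to 3.09), 3.05-fold higher after TAC, and did not pass (limma adjusted p = 0.688). This probe set too carries the suffix for probes that can bind other transcripts. It was 1.05 without sham 2 and 2.19 without sham 1, and averaging the tested probe sets of the gene gave 0.62. Probe set 1439163_at read 8.93, 7.89 and 5.91 after TAC and 9.47, 6.58 and 7.79 after sham, with the highest value of each group in the array of poorest RNA. Its difference was -0.37 ± 1.01 SE, and it was 0.39 without sham 1 and 0.47 without TAC 3. The readings of Zbtb16 thus gave no common direction.

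Fkbp5 encodes the immunophilin FKBP51, which is induced by the receptor and in turn lowers its affinity for hormone. Its only tested probe set, 1416125_at, read 8.72, 10.56 and 9.84 in TAC 1 to 3 against 8.48, 10.19 and 10.29 in sham 1 to 3. The lowest value of each group stood in the array of poorest RNA, and the groups overlapped fully. The difference was 0.05 ± 0.67 SE, and its 95% interval of -1.58 to 1.69 leaves room for changes larger than 2-fold in either direction.

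Sgk1 read 7.54, 9.71 and 8.30 in TAC 1 to 3 against 8.00, 9.52 and 8.41 in sham 1 to 3. TAC 2 and sham 2 were the high animals, more than 1 log2 unit above the others of their groups, and the difference was -0.13 ± 0.66 SE. Dusp1 followed the same order of animals, at 9.13, 10.86 and 9.33 after TAC against 8.99, 10.35 and 9.05 after sham (difference 0.31 ± 0.60). Cebpd, a transcription factor of the acute phase response, lay near the filter, at 3.83, 4.66 and 4.16 after TAC and 3.86, 4.84 and 3.79 after sham (difference 0.06 ± 0.39). Raising values under log2 4 to 4 gave -0.0064, so its sign has no weight. In these 3 genes animal 2 of each group was the highest, and the groups overlapped.

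Per1, a clock gene whose promoter also answers to glucocorticoids, varied more between animals than any group difference among these genes. It read 7.95, 6.09 and 5.72 in TAC 1 to 3 against 7.87, 6.71 and 5.06 in sham 1 to 3, a span of 2.89 over the 6 arrays with a difference of 0.04 ± 0.88 SE. The highest value of each group stood in the array of poorest RNA, 2.05 above the other TAC arrays and 1.98 above the other sham arrays. The hour of tissue collection, on which Per1 depends, is not given in the sources used here. With the Gapdh difference as a covariate the TAC minus sham difference was -0.43 ± 0.54, and without the 2 arrays of highest Star it was -1.38 ± 0.54 (limma adjusted p = 0.974).

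Klf9, a zinc finger repressor that the receptor induces, had 3 tested probe sets that disagreed in sign. The brightest, 1456341_a_at, read 13.19, 12.17 and 12.47 in TAC 1 to 3 against 13.02, 12.80 and 11.86 in sham 1 to 3 (difference 0.05 ± 0.43). Probe set 1428288_at read 10.67, 10.91 and 10.73 after TAC and 10.57, 10.88 and 9.85 after sham, 0.34 ± 0.32 higher. Probe set 1428289_at read 10.83, 9.24 and 9.09 after TAC and 11.78, 10.73 and 9.47 after sham, with a difference of -0.94 ± 0.73. That of 1428289_at was -2.09 without the 2 arrays of highest Star (limma unadjusted p = 0.0126, adjusted p = 0.974). With the Gapdh covariate it was -1.34 (limma unadjusted p = 0.0193, adjusted p = 0.159). In these fits 3.52% and 21.1% of all tested probe sets reached an unadjusted p under 0.05. With 1 array left out the difference of 1428289_at ran from -1.54 (without sham 3) to -0.38 (without sham 1). In 1456341_a_at and 1428289_at TAC 1 and sham 1 stood highest in their groups, and all 3 overlapped between groups.

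Mt2, a metallothionein that binds zinc and copper and answers to both metals and glucocorticoids, was bright in every animal. It read 11.96, 11.72 and 11.52 in TAC 1 to 3 against 12.31, 12.27 and 11.34 in sham 1 to 3. The difference was -0.24 ± 0.34 SE, with sham 3 lowest of all 6. Mt1, a second metallothionein from the same gene cluster, read 13.01, 12.64 and 12.70 after TAC and 12.90, 12.59 and 11.75 after sham (difference 0.37 ± 0.35), so it had the opposite sign and also did not pass. On the brightest tested probe set of each, sham 3 was the lowest animal for both metallothioneins. A dimmer probe set of Mt1, 1451612_at, differed by 0.27 ± 0.61, with sham 3 (6.41) above sham 2 (5.06) and TAC 2 (5.28).

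**Figure D3:**
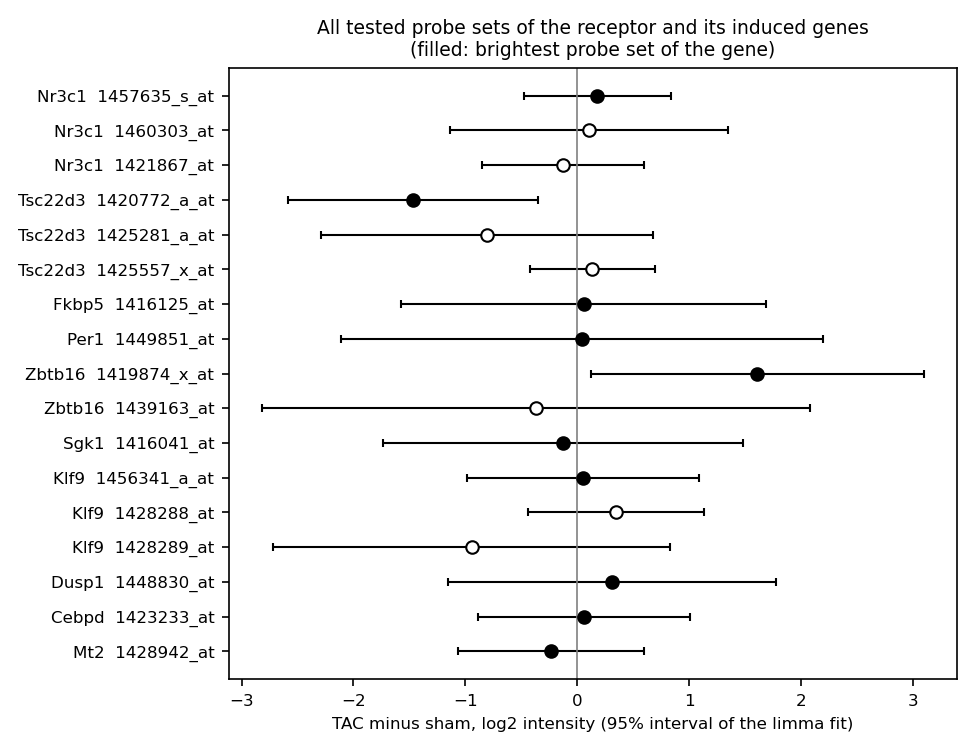
TAC minus sham difference (log2 intensity, points) with the 95% interval of the limma fit (bars) for the 17 tested probe sets. Filled points mark the brightest probe set of a gene. The 2 intervals that leave out 0 belong to Tsc22d3 (-1.47) and Zbtb16 (1.61), and neither passed after adjustment.

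Of the 4 genes with several tested probe sets, Nr3c1, Tsc22d3, Zbtb16 and Klf9, all 4 had readings of both signs. Animal 1 of each group, the one of poorest RNA, was compared with the mean of the other animals of its group. It lay on the same side of that mean in both groups at 9 of the 10 genes, lower at 5 and higher at 4. Over all 10181 tested genes this was so at 82.3%, so it is not particular to these genes. The distance was over 1 log2 unit in both groups at 2 of the 10 genes and at 16.9% of all tested genes. At Fkbp5 animal 1 minus the mean of the others of its group was -1.48 after TAC and -1.76 after sham, both larger in size than the 0.05 between the groups, and at Per1 animal 1 lay higher in both groups. The part of RNA integrity in these values was not tested.

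Levels were also set against Star over the 6 arrays, since cortex cells both make the hormone and can be carried into the dissection. None of 10 relations passed after adjustment over the 10. Pearson's r ran from -0.69 for Cebpd (exact permutation p = 0.126, adjusted 0.985) to 0.15 for Zbtb16 (exact permutation p = 0.767, adjusted 0.985). Spearman's rho for Cebpd was -0.83 (exact permutation p = 0.0583, adjusted 0.583), and for Zbtb16 it was 0.26 (exact permutation p = 0.658, adjusted 1). Without sham 3 and TAC 3, the arrays farthest from the median Star level, r was -0.94 for Cebpd, 0.85 for Zbtb16, -0.85 for Sgk1 and -0.83 for Tsc22d3, over 4 arrays. For Tsc22d3 the sign had been positive over all 6 (0.05). In sham 3, where Star was highest at 10.81, Per1, Klf9, Cebpd and Mt2 had their lowest value of all 6 arrays. Sham 3 also had the smallest Gapdh difference (2.88), and the part of either was not tested.

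The rest of the pathway was read from 4 lists of genes and Pnmt, again with the brightest tested probe set per gene. Over the 43 tested genes 23 lay higher and 20 lower after TAC (median 0.08), 0 passed the threshold and 3 had an unadjusted p under 0.05, where 7.29% of all tested genes did. Among the receptor partners, the chaperones and import factors that hold and move the receptor together with the related receptor gene Nr3c2, 3 of 10 tested genes lay higher (median -0.15) and 0 passed. The median changed sign without TAC 1 (0.02, 5 of 10 higher), and without the 2 arrays of highest Star, TAC 1 and sham 3 (0.12, 6 of 10 higher). The import receptor gene Ipo13 read 6.19, 6.82 and 6.48 in TAC 1 to 3 against 6.93, 7.26 and 6.94 in sham 1 to 3. These groups did not overlap, and the difference was -0.55 ± 0.26 SE (limma adjusted p = 0.788). The co-chaperone genes Fkbp4, which favours transport of the receptor to the nucleus (-0.70 ± 0.59, and 0.10 ± 0.42 on another probe set), and Bag1 (-0.33 ± 0.27) also lay lower and did not pass. Dimmer tested probe sets of the chaperone gene Hsp90aa1 lay lower, and those of Hspa8 went both ways. Hsp90aa1 differed by -0.22 ± 0.41 on its brightest probe set and by -1.10 ± 0.53 on 1426645_at. On 1437497_a_at it differed by -1.50 ± 0.35, without overlap (limma adjusted p = 0.465). Hspa8 differed by -0.09 ± 0.22 on its brightest probe set, by -0.84 ± 0.41 on 1420622_a_at and by -0.75 ± 0.48 on 1420623_x_at. Only 1431182_at of Hspa8 lay higher, by 1.29 ± 0.80. Nr3c2, the mineralocorticoid receptor gene, which binds the same hormone, differed by -0.02 ± 0.56.

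Of the genes that set the steroid level inside the cell, 4 of 6 were tested, with 1 higher, 3 lower, a median of -0.52 and 0 passing. The median was -0.10 without TAC 3, -0.11 without sham 3, -0.28 without TAC 1, -0.82 without TAC 2 and -0.068 without the 2 arrays of highest Star. Hsd11b1, the enzyme that regenerates active glucocorticoid from its inert form, read 7.45, 9.38 and 8.53 in TAC 1 to 3 against 8.16, 9.84 and 10.14 in sham 1 to 3. The groups overlapped, and the difference was -0.93 ± 0.70 SE (limma adjusted p = 0.934), and -0.048 without the 2 arrays of highest Star. Its opposite, the inactivating enzyme gene Hsd11b2, stayed between 2.89 and 3.13 on all arrays and was not tested. Abcb1b, an efflux pump that can export steroids, differed by -0.90 ± 0.89, with its highest value in sham 3 (12.22) and its lowest in TAC 3 (8.36), the arrays of highest and lowest Star. Abcb1a, a pump of the same family, differed by -0.14 ± 0.23.

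Of the coregulators, the proteins that the receptor recruits to open or close chromatin, 10 of 12 tested genes lay higher after TAC on their brightest probe sets, with a median of 0.40 beside 0.09 over all tested genes, and 0 passed. Of all tested genes 41.3% lay lower after TAC. With all probe sets of a gene averaged, 7 of the 12 lay higher and the median was 0.01. Of the 12, 3 had an unadjusted p under 0.05, where 7.29% of all tested genes did. Groups did not overlap at 13.0% of all tested probe sets. Ncoa3, a coactivator with acetyltransferase activity, read 6.57, 7.03 and 7.18 in TAC 1 to 3 against 5.76, 5.93 and 5.85 in sham 1 to 3. The groups did not overlap, and the difference was 1.08 ± 0.25 SE, 2.11-fold higher (limma adjusted p = 0.465). Crebbp, a histone acetyltransferase, read 8.82, 9.33 and 9.09 after TAC and 7.79, 8.41 and 8.02 after sham on its brightest probe set (difference 1.004 ± 0.27, adjusted p = 0.514). Another probe set of Crebbp, 1436983_at, read 5.57, 5.56 and 5.19 after TAC and 7.15, 6.21 and 7.01 after sham, a difference of -1.35 ± 0.32 in the other direction (adjusted p = 0.465). Dimmer probe sets of Med1, Hdac2 and Nrip1 also lay lower without overlap. Med1, a subunit of the Mediator complex, read 5.72, 5.14 and 4.13 in TAC 1 to 3 against 7.43, 7.50 and 7.59 in sham 1 to 3 on 1421907_at (difference -2.51 ± 0.43, limma adjusted p = 0.384), while its brightest probe set gave 0.51 ± 0.34. Hdac2, a histone deacetylase, read 8.52, 8.60 and 8.27 after TAC and 9.55, 9.80 and 9.48 after sham on 1449080_at (difference -1.15 ± 0.23, limma adjusted p = 0.417). The brightest probe set of Hdac2 differed by -0.33 ± 0.23, also without overlap. Nrip1 read 3.62, 4.17 and 3.79 after TAC and 4.37, 4.17 and 4.72 after sham on 1449089_at (difference -0.56 ± 0.27). TAC 2 and sham 2 were almost equal there, and the brightest probe set of Nrip1 gave 0.20 ± 0.44. Ncoa6, a further coactivator, differed by 0.80 ± 0.30 (adjusted p = 0.682).

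**Figure D4:**
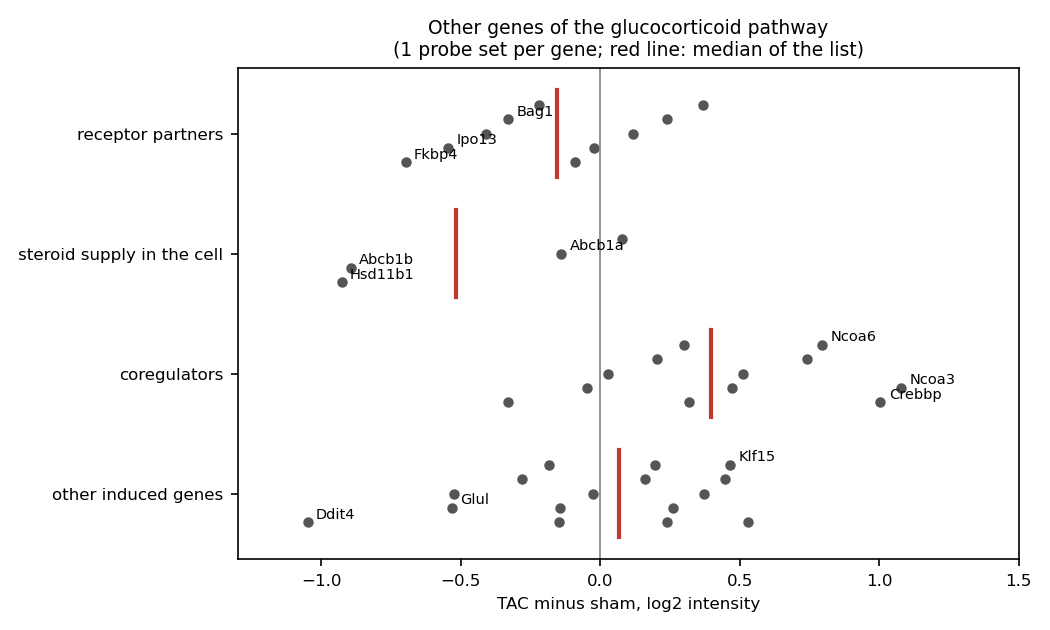
TAC minus sham difference (log2 intensity) of the brightest tested probe set of each gene in 4 lists of the glucocorticoid pathway. Each point is a gene, red lines are list medians, and the 3 genes with the smallest unadjusted p per list are named. The coregulator median is 0.40 and that of the other induced genes 0.07.

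A second set of glucocorticoid-induced genes showed no common direction, with 8 of 16 tested genes higher, 8 lower, a median of 0.07 and 0 passing. Glul, the glutamine synthetase gene, read 9.56, 9.57 and 8.99 in TAC 1 to 3 against 9.69, 10.06 and 9.96 in sham 1 to 3, without overlap (difference -0.53 ± 0.27, limma adjusted p = 0.811). Ddit4, an inhibitor of mTOR signalling, read 6.93, 6.18 and 5.96 after TAC and 6.32, 8.41 and 7.49 after sham, with overlap between TAC 1 and sham 1 (difference -1.05 ± 0.58). Klf15, a metabolic transcription factor, differed by 0.47 ± 0.30. Cdkn1c, Per2, Tat, Arrdc2, Lcn2 and Sult1a1 stayed below the filter.

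Pnmt, the receptor's classical target in chromaffin cells, was close to the top of the measured range on its brightest probe set. It read 14.37, 14.52 and 14.31 in TAC 1 to 3 against 14.07, 14.27 and 14.05 in sham 1 to 3. The groups did not overlap, and the difference of 0.27 ± 0.21 SE did not pass (limma adjusted p = 0.939). Probe set 1450606_at went the other way with overlap (-1.14 ± 0.55). Probe set 1460269_at differed by 1.63 ± 0.28 without overlap (limma adjusted p = 0.384), with all 3 sham values under log2 4.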

How the data were processed

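The deposited values are linear intensities, 1 for each probe set in each animal, which the authors had corrected for background. The submitters' processing notes name GCRMA without a version or options. Symbols came from GEO's platform annotation (1 symbol for 34945 probe sets, several for 932, none for 9160), and 64 control probe sets were left out.

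Intensities were log2-transformed with no further scaling, and the 18188 probe sets that reached log2 4 in 3 or more of the 6 animals were fitted with limma 3.58.1 in R 4.3.3 (2-sided, no covariate, 4 residual degrees of freedom). Benjamini-Hochberg adjustment ran over all 18188, with a threshold of 0.05. All 17 tested member probe sets were reported, and the 12 untested ones only by the range of their values. In each pathway list the 3 genes with the smallest unadjusted p were named. Other named genes (Nr3c2, Hsp90aa1, Hspa8, Hsd11b2, Mt1, Med1, Hdac2, Nrip1) were chosen after their values were seen. The genes and lists were chosen with earlier results of these data known. The number of arrays limits the precision, and the median SE of a difference was 0.39. The procedure was tested on simulated data. Scaling, filters, array weights, a replicate block, Star and Gapdh covariates, averaging of probe sets and left-out arrays were tried as alternatives, the Gapdh ones chosen after seeing the data.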

Additional observations from a re-analysis of the deposited data

How the results depend on the processing

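No member or pathway gene passed under any alternative other than array weights, where 4 member probe sets and 14 pathway genes did. Those weights ran from 0.14 (sham 1) to 6.11 (TAC 3), 6698 of all tested probe sets passed with them, and their TAC side rests mostly on TAC 3. With them 8 member genes lay lower, 4 member probe sets and 21 pathway genes reached an unadjusted p under 0.05 (48.1% of all tested probe sets did), and Nr3c1 turned to -0.20 on 1457635_s_at and -0.47 on 1460303_at, Fkbp5 to -0.39, Cebpd to -0.12, Dusp1 to -0.26 and Per1 to -0.033. Of the 2 member probe sets at an unadjusted p under 0.05, 1 (Tsc22d3 1420772_a_at) stayed there after centring, quantile normalization, cyclic loess or without a filter, and 0 with probe sets averaged. Without the 2 arrays of highest Star neither did, and the 1 probe set counted was Klf9 1428289_at. The 3 pathway genes became 5 after cyclic loess (7.96% of all tested probe sets) and 7 without a filter (4.69%). They became 6 with the Gapdh covariate (21.1% of all tested probe sets) and 1 without the 2 arrays of highest Star (3.52%). Member genes lower after TAC were 5 after quantile normalization, 6 after cyclic loess and 6 with the Star covariate, in place of 3. Signs turned for Fkbp5 (-0.026 after quantile normalization, -0.059 after cyclic loess, -0.058 with the Star covariate), Klf9 (-0.024, -0.059 and -0.015 in the same order, -0.18 averaged) and Per1 (-0.047 after cyclic loess). They also turned for Nr3c1 1460303_at (-0.0086 after cyclic loess), Cebpd (-0.0064 with values under 4 set to 4, -0.14 with the Star covariate) and Zbtb16 1439163_at (0.18 with the Star covariate). Without the 2 arrays of highest Star, Sgk1 was 0.25, Nr3c1 1421867_at 0.070, Tsc22d3 1425557_x_at -0.013, Per1 -1.38, Klf9 -0.59 and Fkbp4 0.065. With the Gapdh covariate Sgk1 was 0.14, Per1 -0.43 and Klf9 -0.14. The cause was not tested.

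With 1 array left out at a time, member probe sets at an unadjusted p under 0.05 ranged from 0 (without TAC 1 or without sham 2) to 3. Pathway genes at that level ranged from 2 to 5, and member genes lower from 2 to 6. Of all tested probe sets 6.45% reached that level without TAC 1, 3.52% without sham 2 and 13.4% without sham 1. The highest counts, 3 and 5, came without sham 1. Values of both signs came from Sgk1 (-0.72 to 0.36), Fkbp5 (-0.53 to 0.55), Nr3c1 1421867_at (-0.36 to 0.012) and 1460303_at (-0.31 to 0.38), Cebpd (-0.16 to 0.39), Dusp1 (-0.23 to 0.76), Per1 (-0.70 to 0.70), Klf9 1456341_a_at (-0.30 to 0.28), Tsc22d3 1425557_x_at (-0.00236 to 0.21) and Zbtb16 1439163_at (-1.06 to 0.47). The median of the member genes ranged from -0.20 to 0.30. Besides these and Nr3c1 1457635_s_at, the other 6 member probe sets kept their sign under every alternative, among them Tsc22d3 1420772_a_at and Zbtb16 1419874_x_at.

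Arrays of the same replicate number deviated together for numbers 1 (r = 0.76) and 2 (r = 0.78) but not 3 (r = -0.22), so the numbers were not taken to pair the samples. With the replicate block 0 member probe sets passed, 4 reached an unadjusted p under 0.05, and 7 pathway genes did, where 16.5% of all tested probe sets did.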
